A study of Caenorhabditis elegans with 2 samples.

Results

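Glutathione transferases couple the tripeptide glutathione to reactive compounds, and in C. elegans most of them are encoded by the gst genes. The set described here holds 43 of these genes together with gcs-1, which encodes the catalytic subunit of glutamate-cysteine ligase, the rate-limiting enzyme of glutathione synthesis. These 44 genes, of 19973 protein-coding genes on the 6 nuclear chromosomes, were chosen by symbol: gst- followed by digits, without gst-42, plus gcs-1. A region of an ELT-3 list was counted for a gene when its summit lay inside the gene or within 2 kb of its 5′ end, on either side of that end.

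The lists come from ChIP-seq of ELT-3 in whole L1 larvae of both sexes together. The worms were of strain OP75, genotype unc-119(ed3) III; wgIs75, a transgenic line that stably expresses ELT-3 with a C-terminal tag of GFP and FLAG. There was 1 group of 2 biological replicates, both from this line and stage, so no condition was compared with another. The whole animal was used, so a region bound in few cells and a region bound weakly in many cannot be told apart.

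ELT-3 belongs to the GATA family of transcription factors and is best known from the epidermis of the worm. The gst genes and gcs-1 are the classical phase II detoxification genes of this animal. Many of them, gst-4 and gcs-1 above all, respond to oxidative stress through SKN-1, the worm counterpart of mammalian Nrf2, and a gst-4 reporter is the usual measure of SKN-1 activity. Genetic work in worms lacking brap-2 has reported that ELT-3 is needed together with SKN-1 for high gst-4 expression, which makes binding at these genes a natural question of this data set.

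No glutathione transferase gene, and not gcs-1, held a peak of the authors' optimal set. With 0 of 44 genes, the share could still be up to 6.82% (3 counts of the total), while 1.39% of all protein-coding genes held such a peak, so an empty result at this number of genes does not set them apart. In the longer pooled list, which holds background as well as peaks, 35 of 44 genes had a region, or 79.5% (95% exact binomial interval 64.7 to 90.2). The same was true of 79.2% of all protein-coding genes. The strongest of these regions, near gst-33, had a signal of 30.3, below the lowest signal of the optimal set, 42.6. Signal is the authors' score for a region. The sources used here do not give its scale, so it is compared within 1 list.

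**Figure D1:**
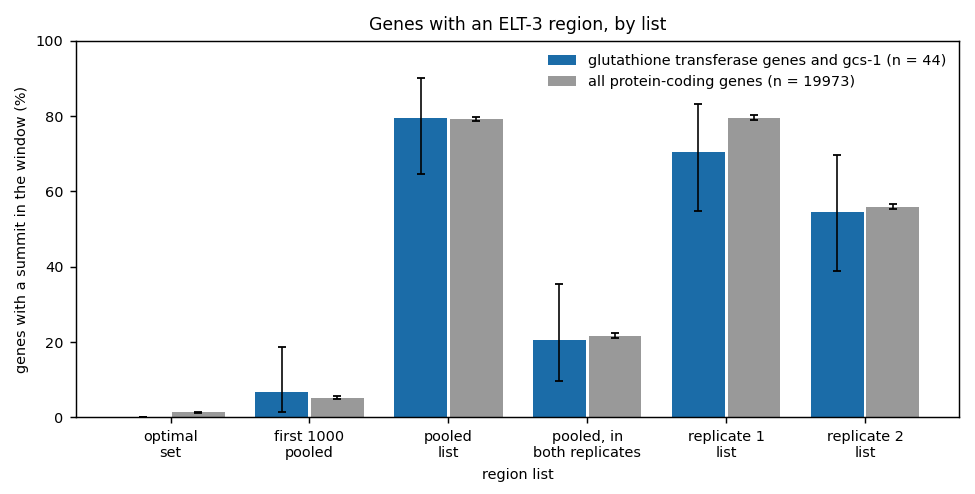
Share of genes (%, y axis) with an ELT-3 summit inside the gene or within 2 kb of its 5′ end, for each region list (x axis), in the 44 glutathione transferase genes and gcs-1 (blue) and in all 19973 protein-coding genes (grey). Error bars are 95% exact binomial intervals, not drawn for a count of 0; the optimal set gives 0 of 44 genes against 1.39%, and the pooled list 79.5% against 79.2%.

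The sequences under 5 of the strongest or best-known regions are shown because they carry, or lack, the GATA site. Each is the plus or minus strand of build ce11 in the direction of the named gene, 5′ to 3′, and capitals mark WGATAR on either strand (W stands for A or T and R for A or G; the other strand reads YTATCW, with Y for C or T). The summit is at the middle of each 101 bases. The gst-33 region is at chrV:3470239-3470339 (minus strand), the gst-13 region at chrII:9231340-9231440 (plus), the gst-23 region at chrV:3241428-3241528 (plus), the gcs-1 region at chrII:9039321-9039421 (minus) and the gst-4 region at chrIV:10141333-10141433 (plus).
gst-33: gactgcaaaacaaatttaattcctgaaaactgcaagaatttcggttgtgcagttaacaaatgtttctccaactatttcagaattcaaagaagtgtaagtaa
gst-13: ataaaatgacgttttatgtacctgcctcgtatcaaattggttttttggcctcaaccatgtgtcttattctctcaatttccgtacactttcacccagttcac
gst-23: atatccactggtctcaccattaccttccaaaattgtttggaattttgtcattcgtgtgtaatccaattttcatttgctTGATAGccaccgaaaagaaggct
gcs-1: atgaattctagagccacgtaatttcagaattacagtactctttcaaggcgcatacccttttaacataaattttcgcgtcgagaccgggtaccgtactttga
gst-4: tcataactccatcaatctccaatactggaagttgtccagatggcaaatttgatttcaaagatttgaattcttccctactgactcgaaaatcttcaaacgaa
Of these, the gst-23 window held a site and the other 4 did not. At gst-20 the summit lay in an exon, 22 bp downstream of the 5′ end. The 30 bases around its site are shown, from chrII:13609757-13609786 (minus strand).
gst-20: actggcagacgaCTATCAgttgtgtgttga

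Glutathione synthesis was represented by gcs-1 (WBGene00001527), on chromosome II from 9035562 to 9038301, minus strand. Its strongest pooled region lay between genes, 1070 bp upstream of the 5′ end, with a signal of 22.2 and rank 4426 of 30000. It was matched by a summit within 100 bp in both replicates. Replicate 1 gave it a signal of 11.4 (rank 10912 of 30000) and replicate 2 gave it 10.4 (rank 7718 of 15646). A second, weaker region lay in an exon, 527 bp downstream of the 5′ end, with a pooled signal of 15.7, and was listed in replicate 2 with 9.93 but had no match in replicate 1. It held a GATA site and the upstream region did not. The nearest optimal peak stood 9970 bp from the 5′ end of gcs-1.

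For gst-4 (WBGene00001752, chromosome IV, 10142225 to 10143099, plus strand) the strongest pooled region was not at its own promoter. It lay 842 bp upstream, in an exon of the divergent neighbour gst-2, with a signal of 20.6 and rank 6477, and it was the single pooled region of the 5.98 kb that hold gst-3, gst-2 and gst-4. Replicate 1 listed 3 summits in the gst-4 window: 833 bp upstream, at the place of the pooled region, with a signal of 11.5 (rank 10512), 1285 bp upstream with 9.33, and 1865 bp downstream with 10.5. Replicate 2 listed 1, 45 bp downstream of the gst-4 5′ end, with a signal of 10.8 (rank 6881). None of the replicate 1 summits lay within 100 bp of that of replicate 2, and the pooled region had no match in replicate 2. The nearest optimal peak was 188886 bp away.

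The bases just upstream of gst-4 are shown because they hold words of both factors without a pooled region. The 163 bases before the 5′ end, at chrIV:10142062-10142224 on the plus strand, are printed with capitals for WGATAR and for the SKN-1 word WWTRTCAT, on either strand.
gst-4 upstream: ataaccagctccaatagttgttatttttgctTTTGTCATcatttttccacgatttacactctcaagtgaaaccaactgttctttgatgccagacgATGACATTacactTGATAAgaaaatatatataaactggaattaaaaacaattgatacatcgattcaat
The SKN-1 words began 132 and 68 bp before the 5′ end, and the GATA site 55 bp before it. A further GATA site began 270 bp upstream and is not shown. A word is a match of letters and says nothing of occupancy.

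Among the 44 genes, 3 had a region among the 1000 strongest of the pooled list (6.82%, 95% exact binomial interval 1.43 to 18.7), against 5.29% of all protein-coding genes. They were gst-33, gst-20 and gst-24, and the last of these shared its region with gst-20. With a limit of 1 kb, or with each summit given to the nearest 5′ end alone, the count was 1, gst-20. The share of all protein-coding genes under these rules is not given, so the lower count is not read as particular to the set. The gst-20 region was the one placed at a promoter: its summit stood 22 bp downstream of the gst-20 5′ end, at rank 978 with a signal of 29.8, on chromosome II from 13609677 to 13609926. It was much higher in the order of replicate 2 (signal 17.01, rank 781) than in that of replicate 1 (10.6, rank 14098). For gst-24 the same summit lay 1564 bp downstream of the 5′ end, past the end of the gene.

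The gst-33 region, the strongest of the set, stood nearer to another gene. Its summit was 1727 bp upstream of gst-33 but 593 bp downstream of the 5′ end of srbc-29, a predicted chemoreceptor gene, in an exon of that gene. It had a pooled signal of 30.3 (rank 890), with 20.2 (rank 611) in replicate 1 and 11.1 (rank 5993) in replicate 2. A weaker region, with a signal of 19.9, lay in the intron of gst-33 itself, 379 bp from the 5′ end, and was matched in replicate 1 alone, with 12.4.

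Close to its own 5′ end, gst-13 came next. The summit lay between genes, 67 bp upstream, on chromosome II from 9231265 to 9231514, with a pooled signal of 26.8 (rank 1622). Replicate 2 gave it 13.9 (rank 2023) and replicate 1 gave it 8.50 (rank 26895), near the lowest signal of that replicate's list, 8.12. As at gst-20, replicate 2 ranked the region high and replicate 1 low.

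Some regions counted for gst-40 and gst-23 lay inside neighbouring genes. The strongest at gst-40 had a signal of 24.8 (rank 2457) and lay within an exon of the cuticle collagen gene col-103, 1995 bp downstream of the gst-40 5′ end. This is also where the optimal set came nearest to any of the 44 genes, with a peak of signal 45.5 whose nearest 5′ end is that of col-103, 3135 bp from the 5′ end of gst-40. The other gst-40 regions, 888 bp upstream (signal 21.8) and 1564 bp downstream in its intron (20.7), were each matched in replicate 1 alone, with 18.8 (rank 864) and 14.5 (rank 3724). At gst-23, the strongest region (24.6, rank 2546) lay 1806 bp upstream, in an exon of the predicted chemoreceptor gene srj-11, and was matched in both replicates with 10.8 and 12.2.

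Other members had weaker regions. At gst-12 and gst-14 a shared region had a signal of 23.2 (rank 3530), in an intron of gst-12, and was listed in replicate 2 (13.7) and not in replicate 1. For gst-10, which encodes an enzyme known to conjugate the lipid peroxidation product 4-hydroxynonenal, the region had a signal of 20.2 (rank 7089), lay in an exon 2727 bp from the 5′ end, and was matched in both replicates with 9.15 and 11.5. At gst-1 the strongest of 3 regions (20.06, rank 7285) lay 1658 bp downstream of the 5′ end, beyond the gene, in an exon of lin-12, which encodes a Notch receptor. A region shared by gst-26, gst-27 and gst-28, 331 bp upstream of gst-27, had a pooled signal of 20.9 (rank 6023). In replicate 2 it was the highest ranked of all regions of the set, at 400 with 19.5, and replicate 1 listed no summit within 100 bp of it. A region shared by gst-31 and gst-39 (21.9, rank 4777) was matched in replicate 1 alone, with 9.93.

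**Figure D2:**
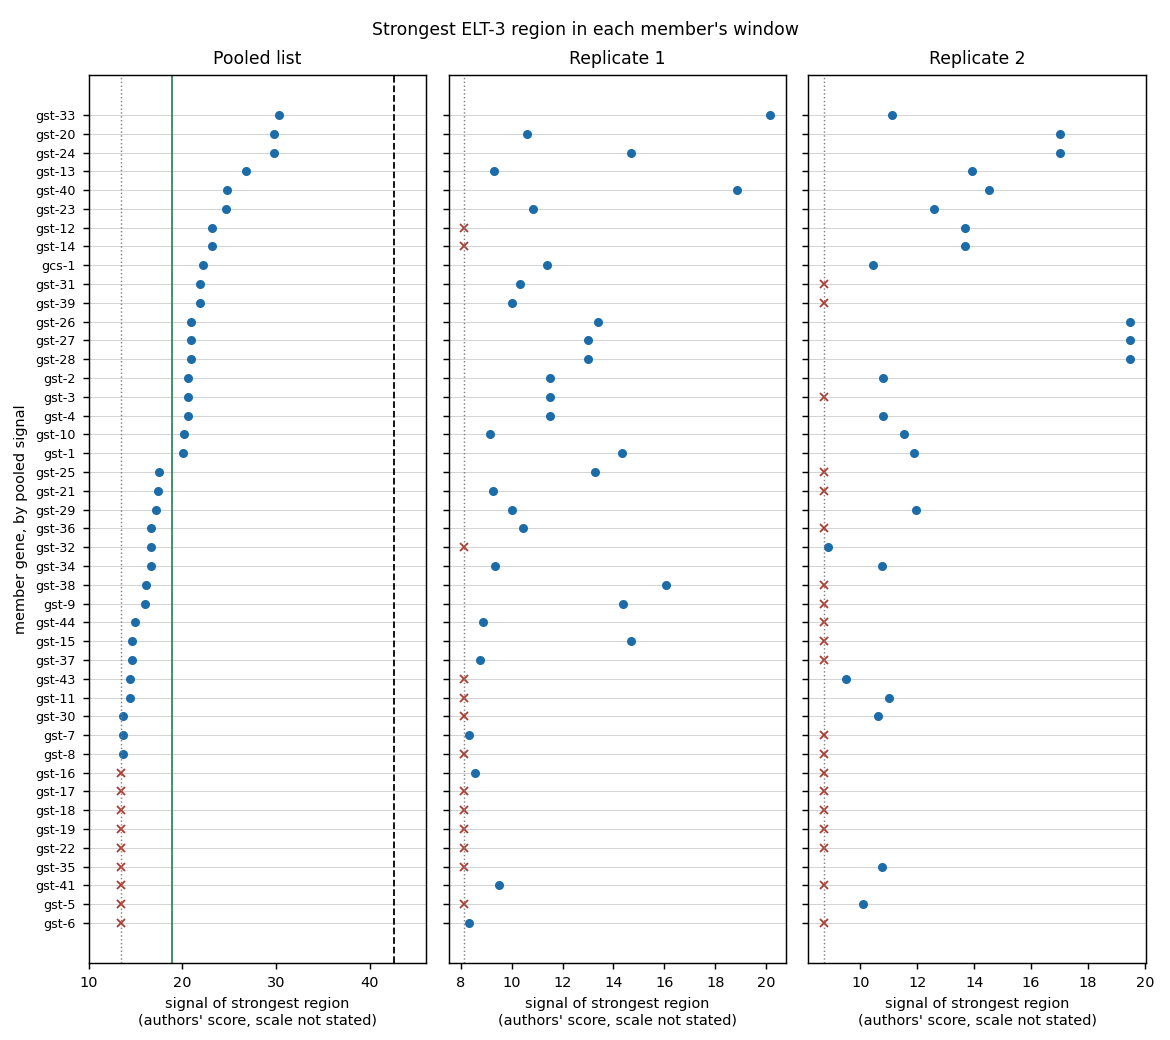
Signal of the strongest ELT-3 region (x axis, authors' score, each list on its own scale) in the window of each of the 44 genes (y axis, ordered by pooled signal), in the pooled list and in each replicate's list. Blue points are listed regions and red crosses, drawn at the lowest signal of the list (dotted line), are genes with none; the dashed line is the lowest signal of the optimal set, 42.6, to the right of all 35 points, and the green line is the median over all protein-coding genes with a region, 18.9.

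In 9 genes the pooled list held no region: gst-5, gst-6, gst-16, gst-17, gst-18, gst-19, gst-22, gst-35 and gst-41. Over all protein-coding genes, 4151 of 19973 had none, so that 79.2% had a pooled region, near the 79.5% of the 44. Of the 9 genes, gst-17, gst-18, gst-19 and gst-22 were also without a summit in both replicate lists. The other 5 had at least 1 in a replicate. Shares of all protein-coding genes for these last counts are not given, so they are not read as particular to the set. The pooled list and that of replicate 1 each end at exactly 30000 regions, with lowest signals of 13.5 and 8.12, so a gene without a region may still have signal below that. Over the 35 genes with a region, the strongest signal had a median of 20.2, from 13.7 to 30.3, against a median of 18.9 over all protein-coding genes with one. Of these 35 genes, 19 had a signal above that all-gene median. Neighbouring members share regions, so they are not independent and the intervals for the 44 genes are too narrow.

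The replicate lists covered the genes much as they covered the genome. Replicate 1 had a summit in the windows of 31 of 44 genes (70.5%, against 79.6% of all protein-coding genes) and replicate 2 in those of 24 (54.5%, against 55.9%). In 9 genes (20.5%, 9.80 to 35.3) a pooled region was matched by a summit within 100 bp in both replicates, against 21.7% of all protein-coding genes. They were gst-33, gst-20, gst-24, gst-13, gst-40, gst-23, gcs-1, gst-10 and gst-34. The 1000 strongest regions of replicate 1 reached 2 of the 44 genes, gst-33 and gst-40, against 5.34% of all protein-coding genes. Those of replicate 2 reached 5, gst-20, gst-24, gst-26, gst-27 and gst-28, against 5.41%. Among the 253 strongest regions of either replicate, the number in the optimal set, there was none at the 44 genes. Over all protein-coding genes, those of replicate 1 reached 1.31% and those of replicate 2 reached 1.47%. With 44 genes, a count of 0 does not set them apart.

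The windows of the 44 genes held 44 different pooled regions, of which 10 fell in the windows of 2 or 3 members and 25 also in the window of a gene outside the set. The density was 3.17 regions per 10 kb of window, counting a region once for each window, against 3.14 over all protein-coding genes and 2.99 per 10 kb of the 6 chromosomes. By place, 23 summits lay in exons of protein-coding genes, 11 in introns and 10 between genes. The same split over all pooled regions is not given here. The nearest 5′ end was that of a member for 32 regions and that of another gene for 12. Neither this count nor that of regions shared with outside genes is given for other gene sets. Within 500 bp of their own 5′ end, 13 of 44 genes had a pooled summit (29.5%, 16.8 to 45.2), against 31.4% of all protein-coding genes. Of the 44 regions, 31 (70.5%, 54.8 to 83.2) were matched in replicate 1 and 17 (38.6%, 24.4 to 54.5) in replicate 2, against 58.2% and 34.8% of all pooled regions.

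**Figure D3:**
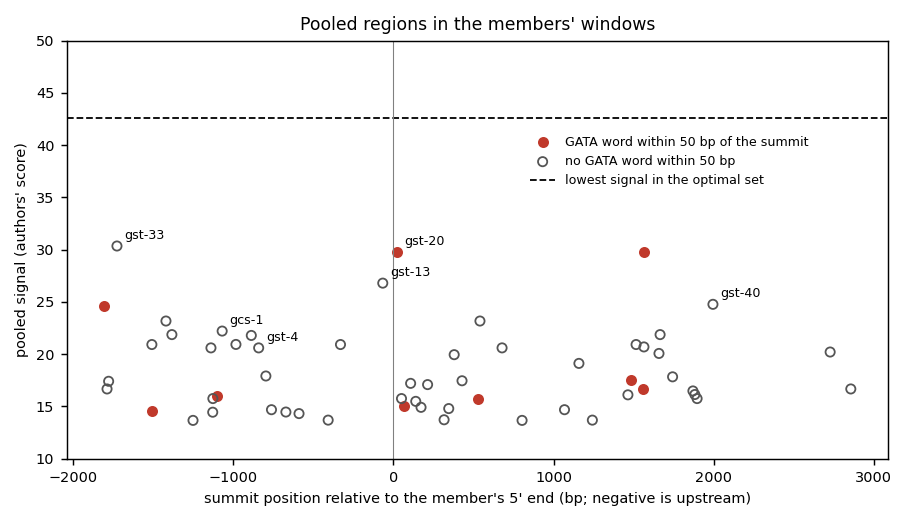
Position of each pooled summit relative to the 5′ end of each member whose window holds it (x axis, bp, negative upstream) and its pooled signal (y axis, authors' score). A region is drawn once for each such member, filled points have a GATA word within 50 bp of the summit, and all points lie below the lowest signal of the optimal set (dashed line, 42.6), the highest at 30.3.

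At the edge of the 2 kb limit, the outermost summits counted were those of gst-40 at 1995 bp (24.8), gst-28 at 1896 bp (15.7) and gst-38 at 1882 bp (16.1). Just beyond it stood summits at 2055 bp from gst-36 (18.02), 2116 bp from gst-41 (26.2), 2162 bp from gst-39 and 2177 bp from gst-28 (the same region, 17.2). None of these was an optimal peak.

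The share of these regions with a GATA site was near that of the pooled list at large. WGATAR lay within 50 bp of the summit in 8 of 44 regions (18.2%, 95% exact binomial interval 8.19 to 32.7), against 21.6% of all 30000 pooled regions and 44.3% of the 253 in the optimal set. In the list of replicate 2 alone the share was 11.5% (3 of 26 regions, against 23.6% of that list), and in that of replicate 1 it was 20.8% (10 of 48, against 21.4%). Pooled regions with a site included gst-20, gst-23 (2 of its 3 regions) and the exonic gcs-1 region. The SKN-1 word WWTRTCAT lay within 50 bp of 4 of 44 summits (9.09%, 2.53 to 21.7), against 4.99% of all pooled regions. Summit windows of the set had a median of 42.1% G and C bases, against 38.6% over the pooled list.

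Upstream of the genes the SKN-1 word stood at a higher share than in the genome at large, and the GATA word at a similar one. In the 500 bp before the 5′ end, WGATAR was found in 32 of 44 genes (72.7%, 57.2 to 85.04) and in 71.4% of all protein-coding genes. WWTRTCAT was found in 29 of 44 (65.9%, 50.1 to 79.5) and in 25.2% of all protein-coding genes. Both words stood upstream of 21 of the 44 genes (47.7%), among them gst-4, gcs-1, gst-13 and gst-20, against 20.7% of all protein-coding genes. A pooled region was present at 21 of the 29 genes with the SKN-1 word (72.4%) and at 14 of the 15 without it (93.3%), against 80.1% and 78.9% over all protein-coding genes. For the GATA word these numbers were 25 of 32 genes with it (78.1%) and 10 of 12 without it (83.3%), against 79.9% and 77.5%. These are descriptions of letters in a window and were not tested, and neighbouring gst genes that arose by duplication can share such words.

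**Figure D4:**
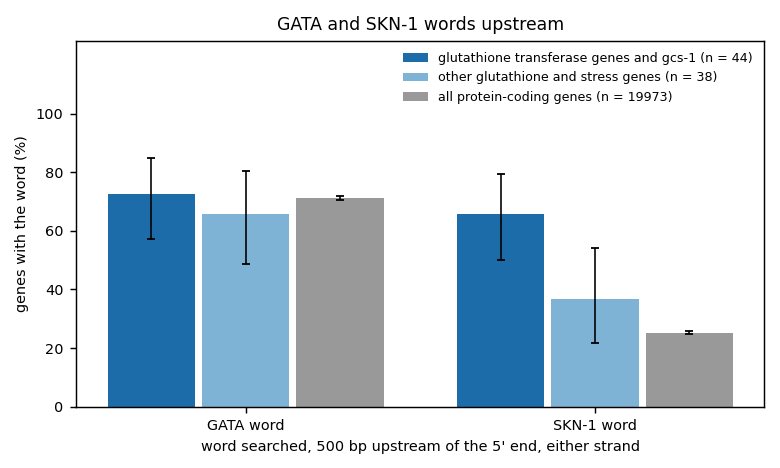
Share of genes (%, y axis) with the GATA word WGATAR or the SKN-1 word WWTRTCAT on either strand in the 500 bp upstream of the 5′ end, for the 44 genes (dark blue), 38 other glutathione and stress genes (light blue) and all 19973 protein-coding genes (grey). Error bars are 95% exact binomial intervals; the GATA word stands at 72.7%, 65.8% and 71.4%, and the SKN-1 word at 65.9%, 36.8% and 25.2%.

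Of the 44 genes, 26 lie on chromosome II, and 25 stand in 4 groups of neighbours less than 20 kb apart. The groups held small numbers of regions, at densities on both sides of the 2.99 per 10 kb of the 6 chromosomes. Of all 19973 protein-coding genes, 4151 had no pooled region. The differences between the groups were not tested. The 9 genes from gst-20 to gst-18 (chromosome II, 13607824 to 13632887 with their windows) held 3 pooled regions, or 1.20 per 10 kb, and 4 of the 9 genes had none. The 9 genes from gst-26 to gst-35 (15162553 to 15187389) held 11, or 4.43 per 10 kb, and 1 gene had none. The stretch from gst-6 to gst-9, of 4 genes, held 5 (3.19 per 10 kb), of which 2 lay in the windows of these genes and the others between the windows of gst-8 and gst-9. The stretch of gst-3, gst-2 and gst-4 held 1 (1.67 per 10 kb). No group held an optimal peak.

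Such neighbours can be near-copies of each other, and a read from a repeated stretch cannot be placed with certainty. Words of 32 bases that occur more than once in the genome made up 17.6% of the gst-20 to gst-18 group, 21.8% of the gst-26 to gst-35 group and 8.55% of the 6 chromosomes as a whole. The median over the windows of the 44 genes was 4.67%, against 1.12% for all protein-coding genes, and the highest was 87.6% for gst-10, so its value is uncertain. Among the genes without a pooled region the share went from 0% at gst-22 and gst-41 to 30.5% at gst-35. The sources used here do not say how the authors treated reads with several places, and the part of repeated sequence in these counts was not tested.

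Other genes of glutathione use and of the oxidative stress response showed no optimal peak either (0 of 38, which allows a share of up to 7.89%). A region among the 1000 strongest was found at 5 of the 38 (13.2%, 95% exact binomial interval 4.41 to 28.1), against 5.29% of all protein-coding genes. These were 3 of the 9 regulators and 2 of the 8 mrp genes, which encode transporters of the MRP family. Long genes have long windows, and the median over all protein-coding genes is 4027 bp. The windows of these 5 were 11346 bp at skn-1, 10768 bp at mrp-6, 9816 bp at mrp-5, 8446 bp at wdr-23 and 7195 bp at mdt-15. The longest of the 38, 22052 bp at mrp-8 and 20207 bp at mrp-7, held no region of the first 1000. The part of window length in the share of 13.2% was not tested. The strongest region was in skn-1 itself, 3168 bp past the 5′ end, with a pooled signal of 41.8 (rank 269), just below the optimal set. The strongest skn-1 region ranked 225 in replicate 1 (signal 24.3) and 548 in replicate 2 (18.2). Next came wdr-23, whose product is the adaptor that targets SKN-1 for degradation, with a summit 172 bp upstream (38.7, rank 346). After it came mdt-15, which encodes a Mediator subunit (33.1, rank 624, 1914 bp upstream). The mdt-15 region was matched in replicate 1 alone (16.5, rank 1820). The transporter genes were mrp-6 (31.7, rank 743) and mrp-5 (29.7, rank 996). None of the 5 omega and kappa class transferase genes, 8 glutathione peroxidase genes, 6 glutaredoxin and glyoxalase genes or gss-1 and gsr-1 had a region in the first 1000, and the highest among them was gsto-2 (26.95, rank 1576). The 38 genes have longer windows than the 44, with medians of 4450 and 4001 bp, and the difference between the sets was not tested.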

How the data were processed

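ELT-3 ChIP-seq of 1 group with 2 biological replicates was taken from the authors' deposited region lists in build ce11: an optimal set of 253 peaks, a pooled list of 30000 regions and replicate lists of 30000 and 15646. Per the labels, chromatin was fragmented by sonication. Per the deposited notes, each replicate list was derived from that replicate's alignments plus a control, the pooled list from both sets of alignments plus a control, and the optimal set from these 3 lists. The deposited signal value of a region is a score of the authors. The sources used here give neither its scale nor the caller, aligner, IDR threshold and depth. It was compared within a list.

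Genes were those of Ensembl release 115 on WBcel235, the assembly of ce11, and sequence came from the RefSeq copy of it. All regions lay within its chromosome lengths. Summits were assigned to windows of 2 kb around the 5′ end plus the gene, and replicate summits matched within 100 bp, with Python 3.11.15, NumPy 2.4.6 and SciPy 1.17.1. Assignment and word search were checked on simulated data. Words were searched on both strands with overlaps allowed. Intervals are 95% exact binomial (Clopper-Pearson) and cover counting error over genes or regions; for a count of 0 the limit of 3 counts is given instead. No test was run: there is 1 group, the lists hold no counts, and counts are set beside those over all protein-coding genes instead. Where nothing says how the replicates were grown, their differences may be technical. The control experiment and the ce10 lists were not used here.

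The members and gene lists were chosen with earlier results of these data known. Named were all members with an optimal peak or a region in the first 1000, the 15 members of largest pooled signal, gst-4, gcs-1, members without a pooled region, and the other pathway genes in the first 1000 with up to 5 more. A name outside this rule, such as gst-1, gst-10 or gst-34, was chosen after its values were seen. Alternatives were other distances, nearest-gene assignment, a shorter list, each replicate alone, other matching distances and other word settings.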

Additional observations from a re-analysis of the deposited data

How the results depend on the processing

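No paired analysis was possible because there is 1 group. Of 26 other settings over 6 results, 13 left the count within 1.5 times or the share within its interval, as did both settings added after the data were seen, which left out summits past a gene's 3′ end. Among the 15000 strongest pooled regions 22 of the 44 genes had one. An optimal peak was found at 1 gene with a distance of 5 kb, the col-103 peak near gst-40. Genes with a region in the first 1000 numbered 1 with a distance of 1 kb or with nearest 5′ ends, 5 with 5 kb, and 2 to 5 when either replicate was left out. With summits matched within 50 bp, 5 genes had a region in both replicates. Shares over all protein-coding genes are not given for the shorter list, the other distances, nearest 5′ ends or this matching. These changes in count are therefore not read as particular to the 44 genes. The median strongest signal was 17.3 with 1 kb, 10.8 in replicate 1 alone and 11.7 in replicate 2 alone. The rule above covers counts and shares, and none of these settings was among the 13. The replicate values are not set against the pooled one, because scores are compared within 1 list. The WGATAR share was 6.82% within 25 bp (11.4% of all pooled regions), 40.9% within 100 bp (38.3%) and 4.55% for TGATAA (10.6%). The cause was not tested for any of these, beyond the fewer or more bases searched. Read depth is not given, so what it limits could not be measured; 44 genes are too few for shares near 1.39% to be seen.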
